A study of Mus musculus with 69 samples.

Results

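The genes described here are 33 genes of homologous recombination and of the Fanconi anaemia pathway, out of 55367 gene symbols in the count table, taken by symbol and not by their values. Homologous recombination repairs a DNA double-strand break by copying the sister chromatid. The MRE11–RAD50–NBN complex finds the break and starts resection of its ends, BRCA1–BARD1, PALB2 and BRCA2 prepare the end for strand exchange together with mediator complexes built from the products of Rad51b, Rad51c, Rad51d, Xrcc2 and Xrcc3, and RAD54 proteins act on the joint molecule. The Fanconi core complex, with FANCL as its ubiquitin ligase, marks the FANCD2–FANCI pair when a replication fork meets an interstrand crosslink, and the checkpoint kinases ATM, ATR, CHK1 and CHK2 signal such damage to the cell cycle machinery and to p53. Mouse embryonic stem (mES) cells and the early epiblast divide rapidly, and recombination is a main route of break repair in dividing cells.

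The samples come from mosaic gastruloids, which are aggregates of mES cells that follow parts of gastrulation, made from clones of the E14Tg2A line. WT–mCherry carries an EF1α-driven H2B–mCherry reporter, WT–emiRFP a CAG-driven H2B–emiRFP670 reporter, and p53KO–emiRFP is 1 daughter clone of WT–emiRFP with a homozygous frameshift in Trp53 that was selected with Nutlin-3a, so every p53KO result below rests on 1 knockout clone. WT + WT gastruloids were seeded with 150 cells of each WT clone and WT + p53KO gastruloids with 150 WT–mCherry and 25 p53KO–emiRFP cells, all received a pulse of the Wnt agonist CHIR99021 from 48 to 72 h, and cells were sorted by colour at 48, 72, 96, 120 and 144 h. With the 3 clones as pluripotent mES cells in serum and LIF at 0 h, this makes 23 groups of 3 libraries, 69 in all. Total counts were 26722541 to 72981570 per library with a median of 53098728, the shallowest being WT–mCherry mES cells replicate 3.

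All 33 members had counts in every library, with a lowest single count of 41, and all passed the low-count filter of every fit, so none is missing from a comparison. Together they took 0.148 to 0.196% of the counts of a library. Trp53 itself differed by log2 fold changes of -3.14 to -3.58 between p53KO–emiRFP and WT–emiRFP at the 6 times, and the 3 knockout libraries lay below all WT libraries at each, so no library went against its label. The mES cells expressed all 6 naive pluripotency markers searched, with summed normalised counts of 155027 to 160624 in p53KO–emiRFP and 182815 to 193357 in WT–emiRFP. In the WT–emiRFP mES cells, replicate 1 was the lowest of its group for 22 of 33 members, and it was also the lowest for 17 in p53KO–emiRFP and 18 in WT–mCherry.

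Levels per transcript length, given as counts per exon length scaled to a fixed library total (TPM), differed widely among members in WT–emiRFP mES cells (mean ± SD, n = 3). Chek2, the kinase downstream of ATM, stood highest at 78.4 ± 2.78, above Chek1, the kinase downstream of ATR, at 58 ± 12 and Fanci at 50.7 ± 8.82. The SDs of Chek1, Fanci, Rad50 (48.5 ± 9.21) and Brca1 (45.7 ± 11.5) were larger than the gap of each to its neighbour, so their order is not resolved. Fancc, a core complex subunit, was lowest at 5.59 ± 0.115, next to Fancf at 6.18 ± 0.462 and Rad51b at 7.15 ± 1.33.

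The promoters of several members share a short motif. Windows from 250 bases before to 50 after the start (RefSeq, GRCm38.p6) were found for 25 of the 33 members, 28 windows in all. The letters TTCCCGC, a core of sites bound by the E2F factors that drive G1/S genes, were searched on both strands and were present in 10 of the 28 windows (35.7%), against 4.6% of all 32851 windows and 8.3% of the 13659 windows of genes whose mean count reached 50. CCAAT, the letters of NF-Y, were in 67.9% of the member windows and 37.4% of all windows, and GGGCGG, the letters of Sp1, which can overlap TTCCCGC by their G and C letters, in 64.3% and 35.7%. A match to the p53 response element, as a pair of its decamers up to 13 bases apart, was in 0 of the 28 windows and in 0.0731% of all windows. The 10 members with TTCCCGC were Atm, Bard1, Brca2, Chek1, Chek2, Fancb, Fancg, Fanci, Fancm and Rad51c. A match is a string of letters in a window and not a measured site. The 5 windows printed here belong to members whose level differed between p53KO and WT cells in the comparisons that follow, with the TTCCCGC letters of either strand in capitals, 5′ to 3′ on the strand of the gene.
Bard1 (chr1:71102923-71103222, minus strand): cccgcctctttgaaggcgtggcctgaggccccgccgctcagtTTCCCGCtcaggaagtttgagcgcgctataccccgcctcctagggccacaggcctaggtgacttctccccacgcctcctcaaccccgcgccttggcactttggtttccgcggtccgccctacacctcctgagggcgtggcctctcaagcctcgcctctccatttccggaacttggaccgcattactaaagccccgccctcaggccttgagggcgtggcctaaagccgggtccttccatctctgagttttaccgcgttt
Chek1 (chr9:36726609-36726908, minus strand): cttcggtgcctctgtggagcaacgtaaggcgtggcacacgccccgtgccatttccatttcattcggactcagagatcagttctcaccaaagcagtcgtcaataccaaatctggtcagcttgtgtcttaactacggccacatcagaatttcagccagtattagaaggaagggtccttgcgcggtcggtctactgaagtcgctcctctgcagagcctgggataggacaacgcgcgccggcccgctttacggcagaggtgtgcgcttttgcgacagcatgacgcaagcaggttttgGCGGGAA
Chek2 (chr5:110839733-110840032, plus strand): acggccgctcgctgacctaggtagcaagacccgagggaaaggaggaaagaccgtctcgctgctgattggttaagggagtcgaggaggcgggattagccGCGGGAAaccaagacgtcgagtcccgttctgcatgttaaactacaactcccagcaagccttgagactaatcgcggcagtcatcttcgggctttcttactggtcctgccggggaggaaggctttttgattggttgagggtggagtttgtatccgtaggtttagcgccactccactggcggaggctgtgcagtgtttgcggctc
Fanci (chr7:79392088-79392387, plus strand): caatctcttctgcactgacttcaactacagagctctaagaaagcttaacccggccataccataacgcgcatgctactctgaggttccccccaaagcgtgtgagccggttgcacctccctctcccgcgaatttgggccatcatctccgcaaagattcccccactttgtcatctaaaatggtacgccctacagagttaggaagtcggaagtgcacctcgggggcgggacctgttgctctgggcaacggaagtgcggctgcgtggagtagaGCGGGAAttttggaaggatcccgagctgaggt
Rad51c (chr11:87404905-87405204, minus strand): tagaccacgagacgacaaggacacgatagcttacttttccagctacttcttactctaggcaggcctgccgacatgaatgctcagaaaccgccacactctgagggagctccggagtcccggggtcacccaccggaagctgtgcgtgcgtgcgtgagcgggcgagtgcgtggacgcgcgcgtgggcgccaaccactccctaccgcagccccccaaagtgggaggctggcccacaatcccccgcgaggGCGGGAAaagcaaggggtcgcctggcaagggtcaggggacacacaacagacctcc

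The first comparison, p53KO–emiRFP against WT–emiRFP within each time, asks how loss of p53 moves these genes as the cells differentiate. The members split by time. At 72 h, 11 of 33 were higher in p53KO cells and 1 was lower, led by the S-phase kinase gene Chek1 (log2 fold change 0.38), the exonuclease gene Exo1 (0.38) and Brca1 (0.32). At 120 h 3 were higher and 14 lower, led by the Fanconi genes Fancm (-0.62) and Fancl (-0.61) and by Rad51c (-0.51), and at 144 h 5 were higher and 13 lower. No member differed by 2-fold. Among the called members the values of Bard1 overlapped between the groups at 72 and 120 h and those of Fancf at 120 h, and those of the others did not at any time. A call is an adjusted p under 0.05 from edgeR's quasi-likelihood test, adjusted over all genes tested, and each fold change is p53KO–emiRFP over WT–emiRFP. A normalised count is a count divided by the size factor of its library. These are bulk samples, in which fewer cells of a type and less RNA per cell cannot be told apart.

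**Figure D1:**
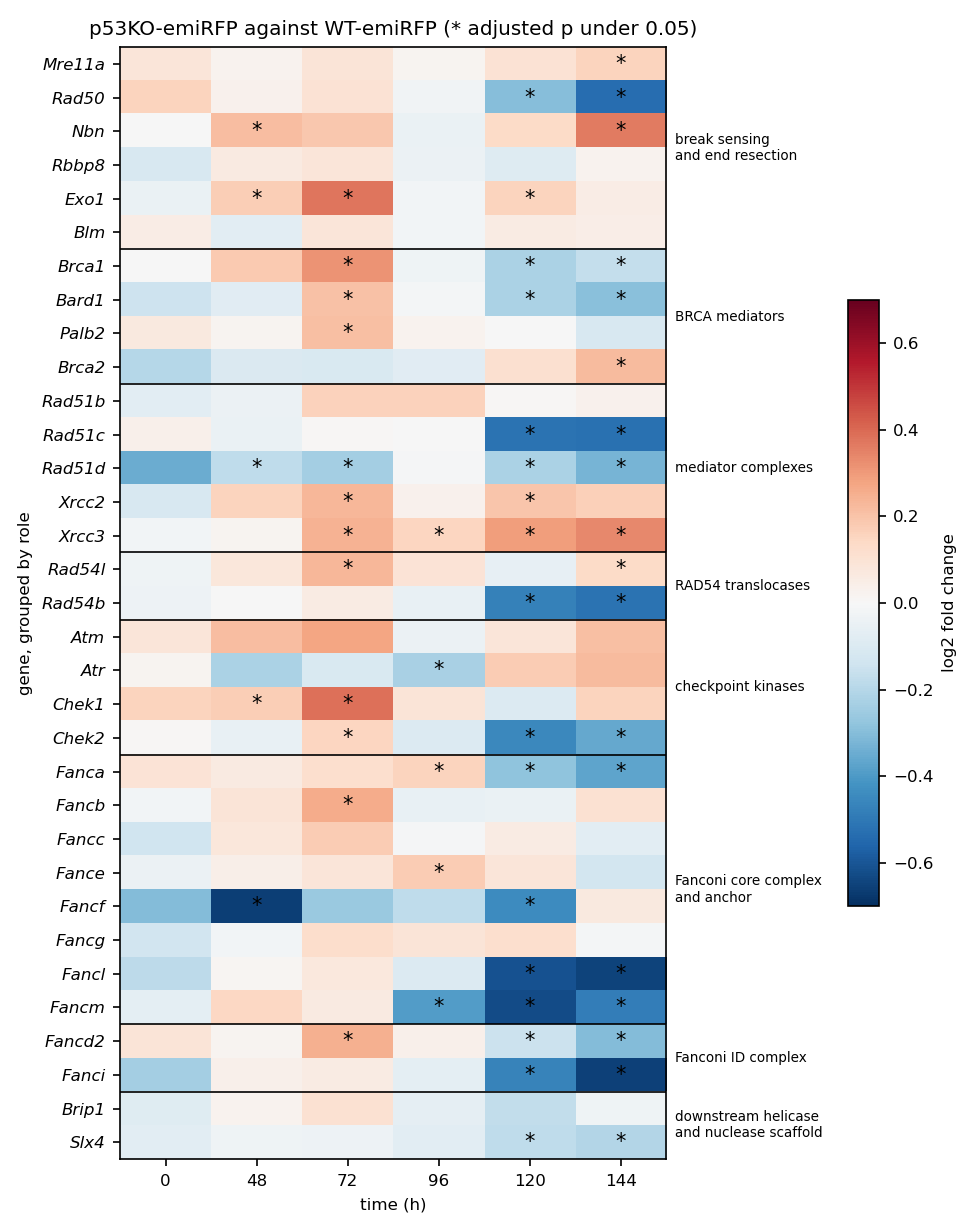
Log2 fold change of p53KO–emiRFP over WT–emiRFP (colour) for the 33 members, in rows grouped by role, at each time in hours (columns). Asterisks mark an adjusted p under 0.05 (3 libraries a group), and the lower values of 13 members at both 120 and 144 h stand to the right of a mostly warm column at 72 h.

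The shares of members called are to be read beside those of all genes, since p53KO and WT cells diverged widely with time. At 0 h 0 of 33 members passed with edgeR, 2 had an unadjusted p under 0.05 and 0 passed with DESeq2, while edgeR called 1.97% of all tested genes higher and 4.16% lower. With the replicate number as a block 1 passed, Rad51d (-0.35), where 9.79% of all genes did, and without replicate 1 there were 2, both lower. At 48 h 5 members passed, 3 higher and 2 lower, where 10.3% of all genes were higher and 11.7% lower, and 11 members (7 higher, 4 lower) passed with the block, which called 41.1% of all genes. At 72 h the 11 higher members (33.3%) stood against 13.4% of all genes and the 1 lower member against 15.7%, and the median log2 fold change was 0.12 over members and 0.01 over all genes. At 96 h 3 were higher and 2 lower, against 9.45% and 13.8% of all genes. At 120 h the 14 lower members (42.4%) stood against 23.7% of all genes and the 3 higher against 27.3%, with medians of -0.09 for members and 0.05 for all genes. With WT–mCherry beside p53KO as the control in place of WT–emiRFP, 6 members were lower at 120 h, a share near the 19.3% of all genes, and 3 higher against 20.1%. At 144 h the 13 lower members (39.4%) were near the 32.2% of all genes, and the 5 higher (15.2%) below the 33.2%.

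**Figure D2:**
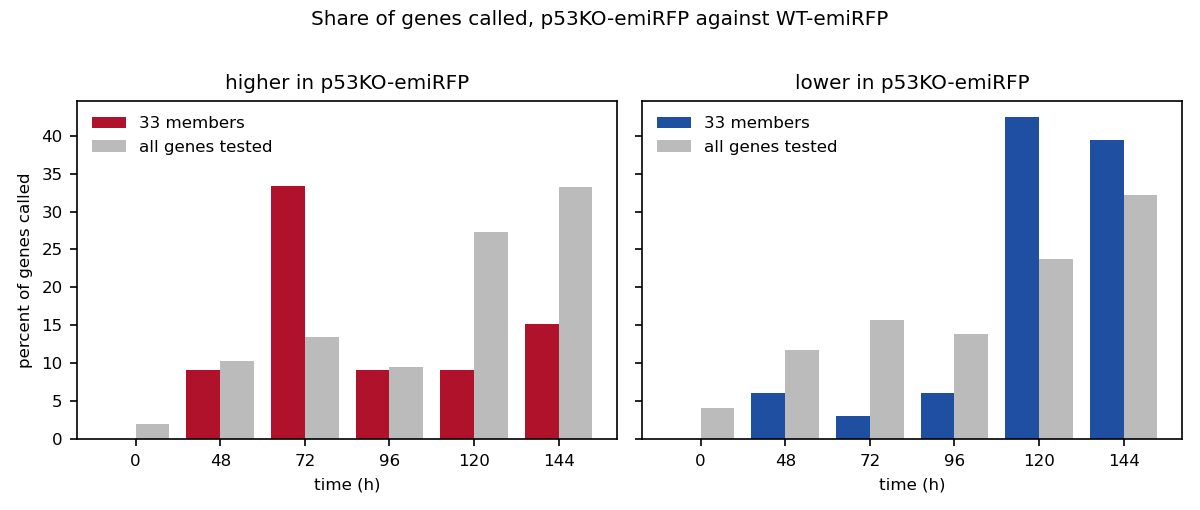
Percent of the 33 members (coloured bars) and of all genes tested (grey bars) called higher (left) or lower (right) in p53KO–emiRFP than in WT–emiRFP at each time in hours, at an adjusted p under 0.05. The members stand above all genes in the higher direction at 72 h (33.3 against 13.4%) and in the lower direction at 120 h (42.4 against 23.7%).

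Chek1, the S-phase checkpoint kinase, and Exo1 were higher than in WT–emiRFP at both 48 and 72 h. Chek1 had normalised counts of 3196, 3529.9 and 3858 in the 3 WT–emiRFP libraries at 72 h and of 4499, 4564 and 4741 in p53KO–emiRFP, and the groups did not overlap. Its log2 fold change was 0.38 (SE 0.06, adjusted p = 0.000437), after 0.17 (SE 0.05, adjusted p = 0.0316) at 48 h. Exo1 encodes the 5′ to 3′ exonuclease that lengthens the resected end. It stood at 5084, 4960.0 and 4772 in WT–emiRFP and at 6405, 6348 and 6483 in p53KO–emiRFP at 72 h, without overlap, a difference of 0.38 (SE 0.05, adjusted p = 2.08e-05) after 0.17 (SE 0.04, adjusted p = 0.0106) at 48 h. Brca1, the ubiquitin ligase that promotes resection and recruits PALB2, was at 4701, 4689 and 5065 against 5847, 5777 and 6368, again without overlap (0.32, SE 0.06, adjusted p = 0.00117). Its partner Bard1 (0.20), the bridge Palb2 (0.21), the core complex gene Fancb (0.26, SE 0.08, adjusted p = 0.031), Fancd2 (0.25), Rad54l (0.23), Xrcc2 (0.23), Xrcc3 (0.24) and Chek2 (0.15) made up the other 8. Of the 4 BRCA mediators only Brca2 was not called at 72 h, with -0.11 and adjusted p = 0.531.

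Nbn, the MRN subunit that recruits ATM, was higher at 48 h (0.22, SE 0.05, adjusted p = 0.00876) with no overlap of the groups, and had 0.19 with adjusted p = 0.0527 at 72 h, where the block gave a call. Atm itself had 0.28 at 72 h with adjusted p = 0.0636, and was called with the block. The lower members were few. The mediator gene Rad51d was lower at 48 h (-0.18, SE 0.05, adjusted p = 0.02) and at 72 h (-0.24, SE 0.06, adjusted p = 0.00963), and had already -0.35 in mES cells (adjusted p = 0.12), where the counts were 1567, 1314 and 1155 in WT–emiRFP and 1073, 1083 and 1020.3 in p53KO–emiRFP. Fancf, an adaptor of the core complex with few counts, was lower at 48 h, at 86, 89.5 and 87.7 in WT–emiRFP and 46, 61.2 and 59.4 in p53KO–emiRFP (-0.66, SE 0.18, adjusted p = 0.0142). Its log2 fold changes from 0 to 144 h were -0.30, -0.66, -0.26, -0.18, -0.44 and 0.07, and of its exon bases 15.0% lie opposite exons of Gas2.

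Genes of the G1/S transition and of replication moved with these members. Of 21 such genes 13 were higher at 48 h and 16 at 72 h, with 0 lower at either time. Ccne1 was at 0.55 and Cdc6 at 0.45 at 72 h, and the summed normalised counts of the list were 285422 to 309068 in WT–emiRFP and 340788 to 353708 in p53KO–emiRFP. Of 20 G2/M genes 8 were higher and 2 lower at 72 h. The part of the cell cycle in the members' values was not tested. Of the 10 members with TTCCCGC letters in a promoter window, 4 were higher at 72 h (Bard1, Chek1, Chek2 and Fancb), as were 4 of the 15 members whose windows lack these letters. Lower at both 120 and 144 h were 5 of the 10 (Bard1, Chek2, Fanci, Fancm and Rad51c) and 4 of the 15.

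Leaving out replicate 1 or replicate 2 reduced the 12 calls at 72 h to 4 and those at 48 h from 5 to 0. With WT–mCherry of either gastruloid as the control in place of WT–emiRFP, a choice made after seeing the data, 3 of the 11 higher members at 72 h were called with all 3 WT populations (Brca1, Chek1 and Exo1) and the 1 lower member, Rad51d, was not. The share of all genes called higher with all 3 is not given here, so this count cannot be set beside a background. The calls of Bard1, Palb2, Fancb and Xrcc3 were lost with either WT–mCherry control, Bard1 being at 0.0034 (adjusted p = 0.98) beside WT, and those of Xrcc2, Rad54l and Fancd2 with 1 of them, whereas Chek2 turned to -0.13 (adjusted p = 0.0428) against WT–mCherry beside WT and to -0.083 (adjusted p = 0.198) against WT–mCherry beside p53KO. Of the 48 h calls, Nbn of the 3 higher and Fancf of the 2 lower members were kept with all 3 WT populations, again without a share of all genes. Against WT–mCherry beside WT at 48 h, Chek1 was at 0.032 (adjusted p = 0.707) and Exo1 at 0.12 (adjusted p = 0.0595).

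At 96 h 5 members passed and none of the leaders of 72 h was among them. Chek1 was at 0.09 (adjusted p = 0.358), Exo1 at -0.02 (adjusted p = 0.847) and Brca1 at -0.03 (adjusted p = 0.726). The 2 lower members were Fancm, the DNA translocase that anchors the core complex to chromatin (-0.39, SE 0.06, adjusted p = 0.000516), and Atr (-0.23, SE 0.07, adjusted p = 0.0252). Higher were Fance, the subunit that contacts FANCD2 (0.18, SE 0.06, adjusted p = 0.042), Fanca (0.16, SE 0.04, adjusted p = 0.0141) and the mediator gene Xrcc3 (0.15, SE 0.05, adjusted p = 0.0377). Each single replicate left out brought these 5 calls down to 1 or 2, and of the 5 only Fanca was also called against both WT–mCherry populations.

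From 120 h on, 13 members were lower in p53KO–emiRFP at both 120 and 144 h: Rad50, Brca1, Bard1, Rad51c, Rad51d, Rad54b, Chek2, Fanca, Fancl, Fancm, Fancd2, Fanci and Slx4. Of all genes tested at both times 21.3% were lower at both. The 13 come from all 8 role groups, and Brca1, Bard1, Chek2 and Fancd2 had been higher at 72 h against WT–emiRFP. This switch from higher to lower depended on the control. With all 3 WT populations as the control, only Brca1 among these genes was still called higher at 72 h. Only Chek2 among them was still called lower at 120 h, so none kept both calls. Fancl, the ubiquitin ligase of the core complex, had 1464, 1402 and 1435 normalised counts in WT–emiRFP and 926, 971 and 918 in p53KO–emiRFP at 120 h, with no overlap, a difference of -0.61 (SE 0.06, adjusted p = 2.43e-06). At 144 h its WT–emiRFP values were 1568, 1532 and 1772, its p53KO–emiRFP values 1034, 1008 and 1066 and the difference -0.65 (SE 0.07, adjusted p = 9.76e-07). Fancm was at 5176, 5268 and 5880.0 against 3581, 3349 and 3667 at 120 h, which is -0.62 (SE 0.08, adjusted p = 1.16e-05), and at -0.48 at 144 h. These are falls by 34.5% and 35.1% of the WT–emiRFP level at 120 h. Fanca, a large core subunit, was at -0.28 and -0.37 at the same times.

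Both genes of the pair that the core complex ubiquitylates were lower at 120 and 144 h. Fanci was at 4056, 4267 and 4279.9 in WT–emiRFP and 3067, 3003 and 3049.6 in p53KO–emiRFP at 120 h, and at 4766, 4913 and 5384 and 3054, 3308 and 3227 at 144 h, so the groups were apart at both times. Its log2 fold changes from 0 to 144 h were -0.24, 0.04, 0.06, -0.07, -0.47 and -0.65, the last with SE 0.07 and adjusted p = 3.39e-06. Fancd2 went from 0.25 at 72 h to -0.15 (adjusted p = 0.0232) and -0.30 (adjusted p = 0.000687). Slx4, the scaffold of nucleases that cut at the crosslink, was lower by little, with log2 fold changes from 0 to 144 h of -0.08, -0.03, -0.03, -0.07, -0.18 and -0.20, and against WT–mCherry beside p53KO it was at 0.14 at 120 h and 0.10 at 144 h, the other direction (adjusted p = 0.0875 and 0.102). Of the other core genes Fancb, Fancc, Fance and Fancg passed the threshold neither at 120 nor at 144 h.

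The recombination genes that were lower act at several steps. Rad51c had 1249, 1289.9 and 1120.3 normalised counts in WT–emiRFP and 798, 920.5 and 842 in p53KO–emiRFP at 120 h, and 1438, 1431 and 1435 against 1046, 988 and 964 at 144 h. The groups did not overlap at either time, and the log2 fold changes from 0 to 144 h were 0.04, -0.05, 0.01, 0.00, -0.51 and -0.52 (adjusted p = 0.000143 at 120 h and 6.09e-06 at 144 h). Rad54b, a motor protein of strand exchange, was at 2322, 2299 and 2584 in WT–emiRFP and 1608, 1730.5 and 1708 in p53KO–emiRFP at 144 h, also apart, with -0.04, 0.00, 0.06, -0.05, -0.47 and -0.51 over the 6 times (adjusted p = 2.51e-05 at 144 h). Rad50, the ATPase of the MRN complex, was at -0.30 (SE 0.06, adjusted p = 0.000551) at 120 h and at -0.53 (SE 0.06, adjusted p = 2.81e-06) at 144 h. Its counts at 144 h were 5570.2, 5319 and 6076 in WT–emiRFP and 3781, 4033 and 3918 in p53KO–emiRFP, and before that its values were 0.16, 0.03, 0.10 and -0.02 at 0, 48, 72 and 96 h. The other MRN subunits were on the other side. Nbn was higher at 144 h, at 1892, 1861 and 2005 against 2518, 2433 and 2449 (0.36, SE 0.06, adjusted p = 9.07e-05), and so was the nuclease gene Mre11a (0.16, SE 0.05, adjusted p = 0.015).

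Among the checkpoint kinases Chek2 stood apart. It had 2645, 2563 and 2370.1 normalised counts in WT–emiRFP and 1864, 1889 and 1788 in p53KO–emiRFP at 120 h, with no overlap, and log2 fold changes of 0.01, -0.05, 0.15, -0.10, -0.45 and -0.36 from 0 to 144 h (adjusted p = 1.65e-05 at 120 h). Chek1, Atm and Atr passed neither at 120 nor at 144 h, with 0.15, 0.21 and 0.22 at 144 h. With the block, all of these 3 were called higher at 144 h and Atr at 120 h. Brca1, with 0.00, 0.18, 0.32, -0.03, -0.22 and -0.17 over the 6 times, was lower by 14.3% at 120 h, at 7357, 7382 and 7836 against 6479, 6008 and 6867.

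The mediator genes Rad51b, Rad51c, Rad51d, Xrcc2 and Xrcc3, whose products work in complexes with one another, did not move together. Rad51c and Rad51d were lower at 120 and 144 h, while Xrcc3, whose product pairs with that of Rad51c, was higher at each time from 72 h, at 1228, 1240.2 and 1213 in WT–emiRFP and 1618, 1416 and 1614 in p53KO–emiRFP at 144 h (0.34, SE 0.07, adjusted p = 0.00067), after 0.29 (SE 0.06, adjusted p = 0.000782) at 120 h. Xrcc2, whose product pairs with that of Rad51d, was higher at 120 h (0.19, SE 0.08, adjusted p = 0.0462), and Rad51b was not called at any time. The other higher members were Exo1 at 120 h (0.16, SE 0.05, adjusted p = 0.0104), and Brca2 (0.22, SE 0.09, adjusted p = 0.0413) and Rad54l (0.13) at 144 h. With all 3 WT populations as the control, 0 of the 3 higher members at 120 h and 2 of the 5 at 144 h (Mre11a and Nbn) were called. These counts stand without a background, as no share of all genes higher with all 3 is given. Xrcc3 was not called against WT–mCherry beside WT at 72, 96 or 120 h (adjusted p = 0.0518, 0.105 and 0.0597) nor against WT–mCherry beside p53KO at 72 or 144 h (adjusted p = 0.0761 and 0.0953), Xrcc2 at 120 h was called against neither (adjusted p = 0.349 and 0.189), and Brca2 was at -0.024 (adjusted p = 0.843) at 144 h against WT–mCherry beside WT.

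**Figure D3:**
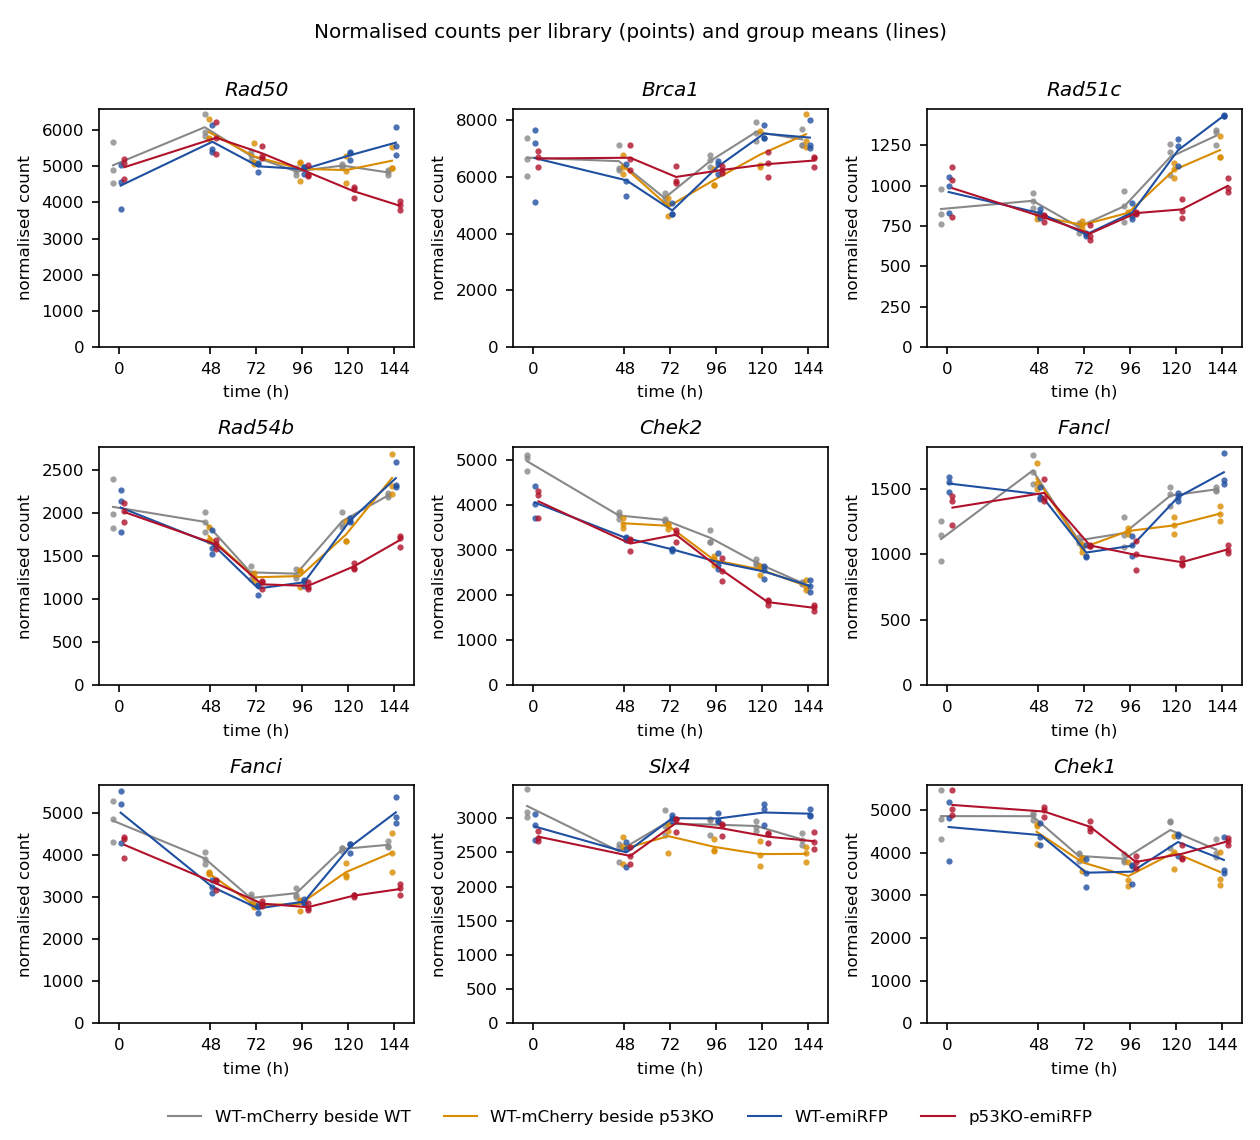
Normalised count of 9 members (vertical axis, from 0) by time in hours, with a point for each library and lines through the means of 3 libraries; WT–mCherry mES cells at 0 h are joined to WT–mCherry beside WT. In the 3 WT populations Rad51c, Rad54b, Fancl and Fanci climb from 72 or 96 h to 144 h, and the p53KO–emiRFP points at 120 and 144 h lie below them, as those of Chek2 and Rad50 do.

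Held against the other WT cells, 6 of the 14 members lower at 120 h were called lower with all 3 WT populations as the control (Chek2, Fanci, Fancl, Rad50, Rad51c and Rad54b), and 9 of the 13 at 144 h (these 6 with Fanca, Fancd2 and Fancm). Of all genes 15.6% at 120 h and 21.7% at 144 h were lower with all 3, so the 6 and 9 of 33 members were near the background. Of the genes lower against WT–emiRFP, 66.1% and 67.4% were also lower with both other controls. Against WT–mCherry beside p53KO, sorted from the same gastruloids as the p53KO cells, Fancm was at -0.11 at 120 h (adjusted p = 0.256) and 9 members were called in place of 17, 3 higher and 6 lower. Leaving out replicate 1 or 2 left 10 or 11 calls at 120 h. Exons of Fanci, Fancl, Fanca, Rad54l and Fancc share 10.5 to 16.4% of their bases with genes on the opposite strand, and Rad54b shares 35.8% with Fsbp on its own strand. Which strand was counted is not given in the sources used here, so such reads cannot be assigned with certainty.

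Cell type markers differed between the genotypes at the same times. The summed normalised counts of the 6 naive pluripotency markers were 25004 to 27698 in WT–emiRFP and 10008 to 11069.8 in p53KO–emiRFP at 96 h. At 120 h all 6 naive pluripotency markers were lower in p53KO–emiRFP, their summed normalised counts being 55910.2 to 64583 in WT–emiRFP and 9823 to 10559.6 in p53KO–emiRFP, and 4 of 6 mesoderm and primitive streak markers were higher and 1 lower (9909.5 to 13110.0 against 26775 to 30774). No marker of either list was at 0 in either group. At 144 h the same 6 of 6 naive markers were lower, and 5 mesoderm markers were higher and 1 lower. Trophoblast markers had 1 higher and 4 lower of 6 at 120 h, and primitive endoderm markers 1 higher and 3 lower of 6. The part of cell type in the members' values was not tested. Of 20 G2/M genes 0 were higher and 7 lower at 120 h, and of 21 G1/S genes 4 were higher and 3 lower.

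Of 41 further recombination and Fanconi genes 11 were higher and 4 lower in p53KO–emiRFP at 72 h, while both 120 and 144 h had 16 higher and 10 lower. Faap24, a partner of FANCM, was at 0.53 and the single-strand binding subunit gene Rpa2 at 0.36 at 72 h. At 120 h Rpa1, the large subunit of the same protein, was at -0.53 and Faap20, a core complex subunit, at 0.55, and at 144 h Zswim7 was at -0.92 and Ube2t, the conjugating enzyme that works with FANCL, at -0.60. Of 21 checkpoint and break signalling partners 5 were higher and 0 lower at 72 h and 4 higher and 6 lower at 120 h. The largest were Rif1 (-0.71), which limits resection, H2ax (-0.44), the histone phosphorylated at breaks, and Trp53bp1 (0.56). Of 10 genes of non-homologous end joining, the other main break repair route, 2 were higher and 2 lower at 120 h, with Xrcc5, a Ku subunit, at -0.41. Of 20 p53 target genes 17 were lower and 1 higher at 120 h.

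A test of the change itself was made across times, in 1 fit of all libraries with the difference between p53KO–emiRFP and WT–emiRFP as the quantity. From 72 to 120 h, an interval chosen after seeing the data, the difference moved down for 15 members and up for 0, where 17.9% of all genes moved down and 19.9% up, with a median of -0.21 over members and 0.02 over all genes. The largest were Fancm (-0.69, SE 0.13, adjusted p = 1.10e-05), Fancl (-0.69, SE 0.11, adjusted p = 5.63e-07), Chek2 (-0.60, SE 0.08, adjusted p = 4.01e-08) and Brca1 (-0.54, SE 0.12, adjusted p = 0.000248). Chek1 (-0.48) and Exo1 (-0.22), both higher at 72 h, were also among the 15. The change was tested against WT–emiRFP alone. With all 3 WT populations as controls, the calls of Fancm and Brca1 at 120 h and of Bard1 and Chek2 at 72 h were not kept. Those of Chek2, Fanci, Fancl, Rad50, Rad51c and Rad54b at 120 h and of Brca1, Chek1 and Exo1 at 72 h were. From 96 to 144 h 11 moved down and 2 up, against 21.9% and 25.7% of all genes, with Fanci (-0.58, SE 0.09, adjusted p = 3.88e-07), Fancl (-0.55, SE 0.11, adjusted p = 1.96e-05), Fanca (-0.53, SE 0.08, adjusted p = 4.29e-08) and Rad51c (-0.52, SE 0.12, adjusted p = 0.000242) down, and Nbn (0.41, SE 0.09, adjusted p = 6.73e-05) and Atr (0.45, SE 0.18, adjusted p = 0.0305) up. From 48 to 96 h 3 moved down, Fancm (-0.54, SE 0.13, adjusted p = 0.00226), Nbn (-0.26) and Exo1 (-0.19), where 5.74% of all genes did, and leaving out any 1 replicate left at most 1 of them. The intervals from 48 to 96 h and from 96 to 144 h share the libraries of 96 h, and that from 72 to 120 h shares none with them.

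**Figure D4:**
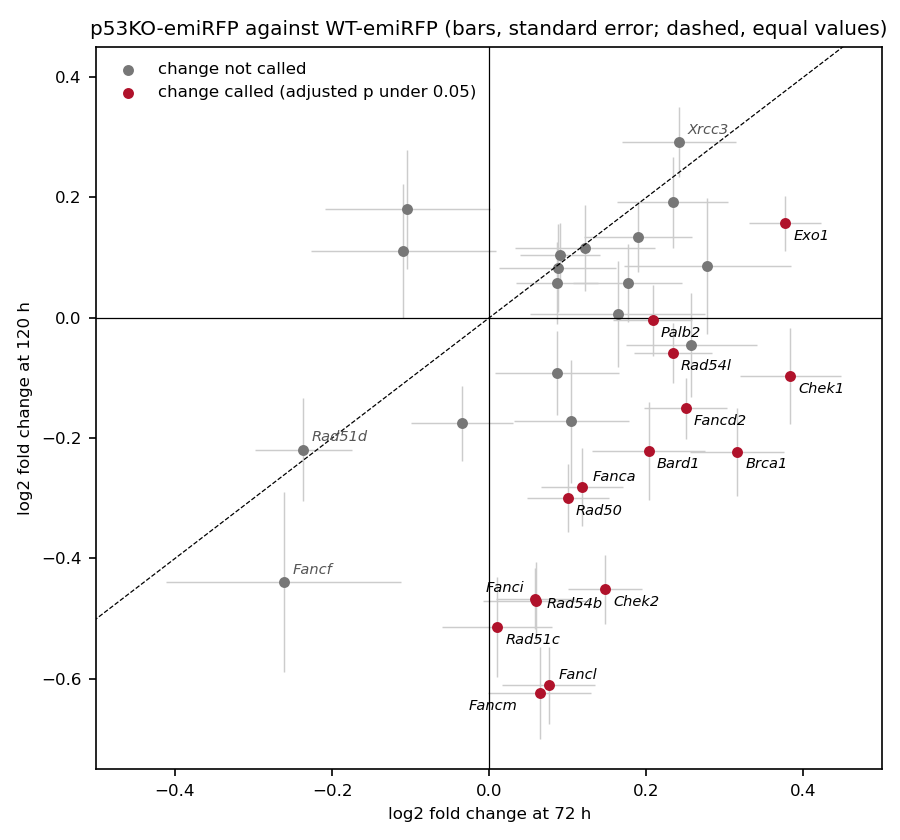
Log2 fold change of p53KO–emiRFP over WT–emiRFP at 120 h (vertical) against 72 h (horizontal) for the 33 members, with standard errors as bars and a dashed line of equal values. The 15 members whose change between the times was called (red) all lie below the line.

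The course in WT cells was taken over the 3 sorted WT populations together, or both WT clones at 0 h. The 3 include WT–mCherry beside p53KO, whereas the p53KO differences above were tested mainly against WT–emiRFP. From 0 to 48 h, on leaving pluripotency culture, 12 members rose and 10 fell (36.4% and 30.3% of members, near the 33% and 37.2% of all genes), Rad51d the most (0.83, SE 0.05, adjusted p = 8.55e-21), then Nbn (0.43), Exo1 (0.40) and Rad50 (0.32). The falls were led by Fancf (-1.06, SE 0.09, adjusted p = 1.10e-15), Brca2 (-0.60), Rad51b (-0.52) and Fancm (-0.49). During the CHIR99021 pulse, from 48 to 72 h, 19 fell and 5 rose (57.6% and 15.2% of members against 34.0% and 32.8% of all genes), with Fancl (-0.56, SE 0.04, adjusted p = 4.93e-17), Rad54b (-0.51), the helicase gene Brip1 (-0.51) and Exo1 (-0.45) the largest falls. Of the 21 G1/S genes 19 fell and of the 20 G2/M genes 17 fell in that interval, and their part in the members' fall was not tested. The rises were Fancf (0.41), Rad51b (0.25), Fance (0.21), Slx4 (0.19) and Mre11a (0.11). Within a time, libraries with the same number deviated together, and WT–mCherry and WT–emiRFP were sorted from the same WT + WT gastruloids. The fit of the WT intervals has no term for this, so its libraries are not all independent and its p-values can be too small. With the replicate number as a block all 102 calls of the WT intervals were kept.

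After the pulse rises outnumbered falls mainly from 96 to 120 h. From 72 to 96 h 10 members rose and 8 fell, shares near the 30.5% and 28.2% of all genes and 9 and 10 with TMM scaling, with Brip1 (0.37, SE 0.05, adjusted p = 3.95e-09), Atr (0.33), Brca1 (0.32) and Fancm (0.23) up, and Rad51d (-0.48), Fance (-0.26), Chek2 (-0.22) and Rad54l (-0.17) down. Without replicate 2 there were 11 calls. From 96 to 120 h 14 rose and 5 fell (42.4% and 15.2% of members against 28.9% and 28.0% of all genes), led by Rad54b (0.57, SE 0.05, adjusted p = 2.09e-16), Rad51c (0.46, SE 0.05, adjusted p = 3.98e-12), Rad51b (0.46) and Fanci (0.43, SE 0.04, adjusted p = 5.54e-15). Mre11a (-0.18), Chek2 (-0.16), Exo1 (-0.15) and Rad51d (-0.13) fell. From 120 to 144 h 5 rose and 14 fell (15.2% and 42.4% of members against 28.7% and 26.8% of all genes). Rad54b (0.33), Rad51c (0.18), Fanci (0.16) and Fancl (0.11) went on rising, and Fancb (-0.29), Nbn (-0.26), Mre11a (-0.26) and Exo1 (-0.25) fell the most.

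In p53KO–emiRFP cells Rad51d, Nbn and Exo1 again led the rises on leaving mES culture. From 0 to 48 h 10 members rose and 10 fell (28.3% and 31.2% of all genes), with Rad51d (0.85, SE 0.08, adjusted p = 1.04e-13), Nbn (0.66), Exo1 (0.60) and Xrcc2 (0.58) up and Fancf (-1.39, SE 0.15, adjusted p = 1.19e-11), Rad51b (-0.77), Brca2 (-0.70) and Atr (-0.50) down. From 48 to 72 h 5 rose and 8 fell (23.1% and 23.3% of all genes), Rad54b (-0.48), Fancl (-0.46), Brip1 (-0.38) and Fancm (-0.26) leading the falls and Fancf (0.78), Rad51b (0.44), Slx4 (0.26), Fance (0.23) and Mre11a (0.17) being the rises. From 72 to 96 h 3 rose and 9 fell (22.4% and 22.2% of all genes). Brca2 (0.37), Brip1 (0.25) and Rad51c (0.24) were the rises, and Chek2 (-0.39, SE 0.06, adjusted p = 1.80e-07), Rad51d (-0.32), Nbn (-0.31) and Rad54l (-0.30) the largest falls. Without replicate 2 the calls from 0 to 48 h were 13 and those from 72 to 96 h were 6.

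From 96 to 120 h, when 14 members rose in WT cells, 5 rose and 3 fell in p53KO–emiRFP (18.9% and 16.1% of all genes). The WT mean pools several populations and p53KO–emiRFP is a single population, so the standard errors differ (for Rad54b 0.05 and 0.08). Fewer calls in p53KO–emiRFP therefore do not by themselves show less movement. Rad54b rose by 0.26 (adjusted p = 0.00771), with Atr (0.40), Brip1 (0.27), the helicase gene Blm (0.21) and Rbbp8 (0.22), the cofactor of MRN in resection. Fanci had 0.14 (SE 0.07, adjusted p = 0.103), Rad51c 0.04 (SE 0.08, adjusted p = 0.765) and Fancl -0.08 (SE 0.08, adjusted p = 0.44), none past the threshold. Chek2 (-0.47, SE 0.06, adjusted p = 3.20e-09), Rad51d (-0.30) and Fanca (-0.21) fell. With TMM scaling the same interval had 5 higher and 5 lower, and without replicate 2 or 3 it had 5 calls. From 120 to 144 h 4 passed, against 13% of all genes higher and 9.65% lower, with Rad54b (0.29) and Rad51c (0.23) up and Exo1 (-0.26) and Mre11a (-0.17) down. With TMM scaling that was 1 higher and 3 lower, and without replicate 2 or 3 it was 2 calls. Whether p53KO and WT cells moved differently within these 2 intervals was not tested.

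The second comparison sets WT–mCherry cells from WT + p53KO gastruloids against the same clone from WT + WT gastruloids, and asks what p53KO neighbours do to these genes in WT cells. Few members passed and all of those were lower. At 48 h 0 of 33 were called by edgeR, 4 had an unadjusted p under 0.05 and 0 passed with DESeq2 (0.0736% of all genes were called by edgeR), and 3 passed with the block, where 4.94% of all genes did. At 72 h the counts were 0 by edgeR, 0 at an unadjusted p under 0.05 and 0 with DESeq2 and with the block (0.559% of all genes by edgeR, 2.27% with the block). At 96 h 0 passed by edgeR, 12 had an unadjusted p under 0.05 and 4 passed with DESeq2 (3.92% of all genes by edgeR), and with the block 11 passed, all lower, where the block called 9.19% of all genes lower. Exo1 (-0.18), Chek2 (-0.24), Slx4 (-0.17) and Brca1 (-0.16) were among these 11.

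At 120 h 2 members were lower by edgeR, against 2.52% of all genes. The count was 5 with DESeq2, 5 with all 69 libraries in the fit and 0 with only the compared groups in it. No share of all genes is given for these settings, and the count with the block is listed with the processing settings at the end. Fancl had 1456, 1512 and 1369 normalised counts beside WT and 1222, 1283 and 1152 beside p53KO, without overlap (-0.25, SE 0.06, adjusted p = 0.0356). Fanci had 4175, 4097 and 4177 beside WT and 3527, 3473 and 3806 beside p53KO, also without overlap (-0.20, SE 0.05, adjusted p = 0.0288). Both calls were lost without replicate 1 or without replicate 2, and 1 was left without replicate 3. At 144 h 4 were lower, against 15.5% of all genes. Exo1 was at 4330.4, 4213 and 4390.2 beside WT and 3720.0, 3620.3 and 3954 beside p53KO (-0.20, SE 0.05, adjusted p = 0.00994), and Rad54l at 3169, 3195 and 3268 and 2855, 2665 and 2934 (-0.19, SE 0.05, adjusted p = 0.0146), both without overlap. Fancc was at -0.23 (SE 0.07, adjusted p = 0.0246) and Fancl at -0.19 (SE 0.06, adjusted p = 0.0457). With the block 8 passed, 2 higher and 6 lower (37.3% of all genes), with TMM scaling 1 higher and 2 lower, with no filter on low counts 2, with only the compared groups in the fit 1, and without replicate 1 or without replicate 2 there were 0.

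**Figure D5:**
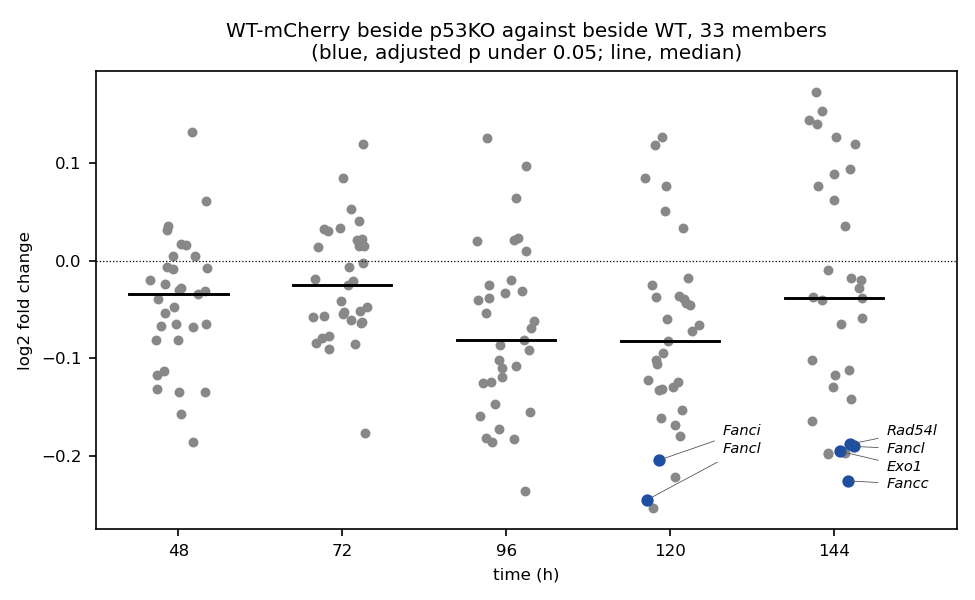
Log2 fold change of WT–mCherry cells beside p53KO over those beside WT (vertical) for the 33 members at each time in hours, each point a gene, with the median as a line. Blue points passed an adjusted p of 0.05, 2 at 120 h and 4 at 144 h, all below 0; the horizontal scatter has no meaning.

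Over the members the median log2 fold change by neighbour was -0.03, -0.02, -0.08, -0.08 and -0.04 from 48 to 144 h, and over all genes -0.01, 0.00, 0.00, -0.01 and -0.03. G1/S genes moved with them: 5, 3 and 12 of 21 were lower and 0 higher at 96, 120 and 144 h, with summed normalised counts at 144 h of 266829 to 274018 beside WT and 223768 to 247426 beside p53KO. Of the 3 histone genes that mark the emiRFP clones (H2bc14, H2bc21 and H2bc7) 2 were higher beside p53KO at 96, 120 and 144 h, the summed normalised counts at 120 h being 154 to 228 beside WT, 383 to 741 beside p53KO and 9119 to 11059 in the p53KO–emiRFP cells themselves. Mesoderm markers had 4 of 6 higher and 1 lower at 120 h. The part of the cell cycle, of emiRFP cells in the mCherry gate and of cell type in the members' values was not tested.

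The third comparison, WT–emiRFP against WT–mCherry beside WT, gives the difference between the WT clones with no mutation between them. It used the same WT–emiRFP libraries as the p53KO comparison and the same WT–mCherry libraries as the neighbour comparison, so these are not independent. At 0 h 1 member was higher in WT–emiRFP, Fancl (0.47, SE 0.11, adjusted p = 0.0196), where 6.55% of all genes were. The count of members called there, in either direction, was 4 with DESeq2, 7 with all 69 libraries in the fit and 0 to 4 without 1 replicate, and no share of all genes is given for these settings. At 48 h 3 were lower, Brca2 (-0.45, SE 0.11, adjusted p = 0.0198), Fanci (-0.27) and Chek2 (-0.21), against 4.71% of all genes, and 12 passed with the block, all lower, where 16.6% of all genes were. At 72 h Chek2 alone was lower (-0.28, SE 0.05, adjusted p = 0.00212; 3.3% of all genes). At 96 h edgeR called 0 members, 4 had an unadjusted p under 0.05 and DESeq2 called 1 (2.15% of all genes by edgeR), with 5 under the block (15.9%), and at 120 h the counts were 0, 2 and 0 (1.22% of all genes by edgeR), with 2 under the block (10.8%). At 144 h 4 were higher in WT–emiRFP, Fancm (0.26, SE 0.07, adjusted p = 0.0208), Fanci (0.24), Rad50 (0.23) and Slx4 (0.19), against 10.8% of all genes. These 4 were also lower in p53KO–emiRFP than in WT–emiRFP at 144 h, and against WT–mCherry beside WT the p53KO–emiRFP values were -0.22, -0.41, -0.30 and -0.013 in the same order. Without any 1 replicate at most 1 of the 4 calls was left at 144 h, and without replicate 1 there was 0 at 48 h and 0 at 72 h.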

How the data were processed

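RNA of sorted gastruloid cells and of mES cells was sequenced as poly(A) libraries, 69 in 23 groups of 3, and groups were taken from the sample labels. The authors trimmed reads with Trim Galore 0.6.7 and counted them per gene with STAR 2.7.11b against GRCm38.p6 with Gencode release 25, and the deposited values are raw counts per gene symbol with no normalisation. Which strand was counted is not given in the sources used here. The study's methods describe 3 independent experiments. No column of values was left unused (0). Counts were scaled by median-ratio size factors, genes with low counts were removed with edgeR's filterByExpr, and edgeR 4.0.16 quasi-likelihood tests in R 4.3.3 were fitted over all groups of a time, or over all libraries for intervals and for changes of a difference, with Benjamini-Hochberg adjustment over all genes tested and a threshold of 0.05. The scripts were tested on simulated data first. Levels per length used exon lengths of the Gencode GRCm38 annotation. Alternatives were TMM scaling, no filter, DESeq2 1.42.0, a block for the replicate number, other sets of libraries in the fit, each replicate left out, and, added after seeing the data, the other WT populations as controls. Libraries with the same number deviated together from the means of their groups, at r over 0.1 for every number in 14 of 17 comparisons (range 0.0406 to 0.688), so the numbers pair the samples in those. No pair of replicates agreed within sampling noise.

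Named per comparison were up to 4 rises and 4 falls, the largest among members that passed and moved one way in all 3 same-numbered pairs, and, between p53KO–emiRFP and WT–emiRFP, the member of each of the 8 role groups with the largest absolute log2 fold change at any time, a choice made on the measured difference, up to 3 genes per direction of each other list, and Trp53 as the check of labels. Other members named with a value were added after their values were seen, to complete a role group or a count. The members and lists were chosen with earlier results of these data known.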

Additional observations from a re-analysis of the deposited data

Results flagged for a closer look

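The results listed here are those where the difference between p53KO–emiRFP and WT–emiRFP at one time differed from that at another by a test of the change itself (edgeR, adjusted p under 0.05, 3 libraries a group). Values are changes of the log2 fold change, later time minus earlier.

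From 48 to 96 h the change was -0.54 for Fancm, -0.26 for Nbn and -0.19 for Exo1.

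From 96 to 144 h the end resection and checkpoint genes split, with -0.51 for Rad50 and -0.26 for Chek2 against 0.41 for Nbn and 0.45 for Atr. Among BRCA partners, mediators and translocases the change was -0.28 for Bard1, -0.52 for Rad51c, -0.32 for Rad51d and -0.46 for Rad54b. In the Fanconi pathway it was -0.53 for Fanca, -0.31 for Fance, -0.55 for Fancl, -0.33 for Fancd2 and -0.58 for Fanci.

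From 72 to 120 h, an interval chosen after seeing the data, all 15 changes past the threshold were negative. The change was not tested with the other WT controls. They were -0.40 for Rad50, -0.22 for Exo1, -0.54 for Brca1, -0.42 for Bard1, -0.21 for Palb2, -0.52 for Rad51c, -0.29 for Rad54l and -0.53 for Rad54b. The kinase genes had -0.48 for Chek1 and -0.60 for Chek2. The Fanconi genes had -0.40 for Fanca, -0.69 for Fancl, -0.69 for Fancm, -0.40 for Fancd2 and -0.53 for Fanci. Naive pluripotency and mesoderm markers differed between the genotypes at the later times too, and their part in these changes was not tested.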

How the results depend on the processing

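Over 262 calls of a member in a comparison, the replicate block and DESeq2 kept all 262, TMM scaling lost 13, no filter on low counts lost 47, and leaving out replicate 1, 2 or 3 lost 73, 85 and 47. Calls turned direction under other WT controls alone, where Chek2 at 72 h was -0.13 (beside WT) and -0.083 (beside p53KO), Slx4 0.14 at 120 h and 0.10 at 144 h (beside p53KO) and Brca2 -0.024 at 144 h (beside WT). The cause of the moves below was not tested.

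Counts of members called in p53KO–emiRFP against WT–emiRFP were 1 at 0 h and 11 at 48 h with the replicate block, 2 at 0 h, 3 at 48 h and 2 at 96 h with all 69 libraries in the fit, 2 at 96 h with no filter, 2 at 0 h and 8 at 48 h with WT–mCherry beside WT as the control, and 9 at 120 h with WT–mCherry beside p53KO. For neighbours they were 3, 11, 10 and 8 at 48, 96, 120 and 144 h with the block, 3, 1 and 2 at 96, 120 and 144 h with no filter, 4 and 5 at 96 and 120 h with DESeq2, 2 and 5 with all 69 libraries, and 0 and 1 at 120 and 144 h with only the compared groups. For the WT clones they were 6, 12, 5, 5 and 2 from 0 to 120 h with the block, 2, 2, 1 and 1 at 0, 72, 96 and 120 h with no filter, 4, 5, 2 and 1 from 0 to 96 h with DESeq2, and 7 and 1 at 0 and 96 h with all 69 libraries. With no filter 2 members passed from 120 to 144 h in p53KO–emiRFP, and 1 changed its difference from 48 to 96 h, as with TMM (1). The WT clones at 0 and 72 h and the neighbour comparison at 120 h did not reach r over 0.1 for every number (lowest correlations 0.088, 0.0406 and 0.0705). This does not show that their samples are unpaired, since numbers 2 and 3 of that neighbour comparison had 0.625 and 0.576. Of 102 samples 99 correlated best with their own number.

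Without 1 replicate the counts for p53KO–emiRFP against WT–emiRFP ranged from 0 to 2 at 0 h, 0 to 4 at 48 h, 4 to 12 at 72 h, 1 to 2 at 96 h, 10 to 13 at 120 h and 13 to 19 at 144 h. For neighbours they ranged from 0 to 1 at 96 h and 120 h and 0 to 3 at 144 h, and for the WT clones from 0 to 4, 0 to 3, 0 to 3 and 0 to 1 at 0, 48, 72 and 144 h. Intervals gave 11 to 19 for WT cells from 72 to 96 h, and 13 to 19, 6 to 12, 5 to 7 and 2 to 3 for p53KO–emiRFP from 0 to 48, 72 to 96, 96 to 120 and 120 to 144 h, and changes from 48 to 96 h 0 to 1. Groups of 3 libraries and, for Fancf, counts down to 41 limit what could be detected.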
